A study of Mus musculus with 16 samples.

Results

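Guca2a, Guca2b, Gucy2c and Prkg2 make up the guanylin pathway of the gut epithelium, from the secreted peptides through their receptor to a kinase that its second messenger activates. These 4 genes were taken by name from the 54123 genes that the deposited transcript values cover. Their estimated read counts were followed across 16 RNA-seq libraries of mouse colon organoids in 8 groups, and the remaining genes served to fit the tests and to show how often any gene changed.

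Guanylin, encoded by Guca2a, and uroguanylin, encoded by Guca2b, are small peptides that intestinal epithelial cells release toward the lumen. They bind guanylate cyclase C, the product of Gucy2c, on the apical membrane, where the receptor makes cGMP inside the cell. Cyclic GMP activates the membrane-bound cGMP-dependent protein kinase II, encoded by Prkg2, which stimulates the chloride channel encoded by Cftr and lowers sodium uptake through the exchanger encoded by Slc9a3. Guanylin is known as the main ligand of the colon, and GUCY2C is studied as a receptor whose ligands are lost in colorectal tumours.

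The organoids, which are epithelial cultures grown from crypts, came from the proximal or the distal colon of 2 female mice aged 8 weeks. All mice carried a heterozygous Cre-inducible BRAF V600E allele and a heterozygous tdTomato reporter, and for these RNA libraries the study's methods describe no Cre step. Cultures received Cas9 with a guide that has no target (Scramble-sgRNA) or with a guide against Cdx2, a homeobox transcription factor of the intestinal epithelium (Cdx2-sgRNA). In the 4th month of culture all organoids spent 2 days in WENR-plus, a medium with Wnt3a, EGF, Noggin and R-spondin 1. A further 3 days followed either in WENR-plus or in WENR-minus, which lacks all of these factors. The 2 regions, 2 guides and 2 media gave 8 groups with 2 libraries each, 1 per mouse. Mouse 1 and mouse 2 below stand for the replicate numbers of the labels. Whether a number is the same mouse in different cultures is not stated. The Cdx2-sgRNA lines are clones of 1 cell with frameshifts in both alleles, a cloning step that is not described for Scramble-sgRNA organoids, so guide and clone cannot be told apart.

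Libraries held between 12465194 and 18922143 estimated reads, of which 15.5% to 28.0% came from mitochondrial ribosomal RNA. Cdx2 itself measured 71.0 and 73.9 CPM (the estimated read count scaled to library size, here with TMM factors) in the proximal Cdx2-sgRNA libraries in WENR-minus, against 151 and 203 CPM in Scramble-sgRNA. In WENR-plus they were 29.9 and 33.3 against 127 and 142 CPM. In the distal colon Cdx2 measured 86.1 to 126 CPM in the libraries labelled Cdx2-sgRNA and 110 to 112 CPM in Scramble-sgRNA after 3 days in WENR-minus (edgeR adjusted p = 0.876). The values in WENR-plus were 50.2 and 62.3 against 67.9 and 76.8 CPM, without overlap, as for 37.1% of all genes tested, and the difference was not called (edgeR adjusted p = 0.857). The RNA level is thus no check of the guide in distal organoids, since a frameshift need not lower an RNA. The 5 epithelial markers were present in every group, whereas the sum of 6 fibroblast markers stayed at or under 11.96 CPM, with Dcn at 0 in every group.

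The end of each propeptide carries the active hormone, and the last coding bases of both genes are shown because both hormones are built around cysteines at the same positions. The 45 bases before the stop codon lie at chr4:119639228-119639272 on the + strand for Guca2a and at chr4:119656795-119656839 on the - strand for Guca2b (GRCm38), each within a single exon of a transcript with 3 exons. The capitals mark the cysteine codons.
Guca2a: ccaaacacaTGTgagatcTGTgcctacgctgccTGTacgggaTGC
Guca2b: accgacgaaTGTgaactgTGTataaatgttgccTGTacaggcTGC
Both stretches hold 4 cysteine codons, at codons 4, 7, 12 and 15 of the 15. Of the 45 bases 29 were identical, and of the 15 codons 5 were identical.

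The ligand genes are neighbours. Guca2a lies at chr4:119637704-119639471 on the + strand and Guca2b at chr4:119656607-119658954 on the - strand, with 17135 bases between them. Gucy2c lies at chr6:136697284-136781765 and Prkg2 at chr5:98929773-99037351, both on the - strand. The only annotated gene that overlaps a member is the pseudogene Gm3470 inside Prkg2, which held 0 to 3 reads per library.

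All 4 genes moved with the guide against Cdx2, but a promoter sequence was available for only 2 of them. These are the ligand genes, whose promoters are shown. Each window runs from 250 bases before to 50 bases after the RefSeq start (GRCm38.p6), at chr4:119637482-119637781 on the + strand for Guca2a and chr4:119658896-119659195 on the - strand for Guca2b. The capitals mark matches to a GATA site (AGATAA or its reverse complement TTATCT) in Guca2a and to an HNF1 core (GTTAAT or ATTAAC) in Guca2b.
Guca2a: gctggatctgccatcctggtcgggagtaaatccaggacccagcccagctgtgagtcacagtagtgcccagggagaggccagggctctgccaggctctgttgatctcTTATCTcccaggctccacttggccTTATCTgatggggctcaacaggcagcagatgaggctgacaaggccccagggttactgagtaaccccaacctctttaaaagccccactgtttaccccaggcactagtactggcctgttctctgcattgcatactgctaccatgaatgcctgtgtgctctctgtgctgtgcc
Guca2b: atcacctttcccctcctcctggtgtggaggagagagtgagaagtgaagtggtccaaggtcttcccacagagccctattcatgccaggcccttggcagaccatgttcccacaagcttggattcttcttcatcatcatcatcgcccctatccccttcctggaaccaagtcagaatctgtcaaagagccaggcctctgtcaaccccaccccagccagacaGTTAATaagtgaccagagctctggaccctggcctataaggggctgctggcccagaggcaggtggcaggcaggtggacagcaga
Neither window held the Cdx2 core ATAAA, the TCF/LEF core ATCAAAG or the HNF4 site CAAAGTCCA on either strand. Among 32851 promoters of the same length, 40.0% held ATAAA, 3.73% held ATCAAAG and 0.475% held CAAAGTCCA. The GATA and HNF1 letters were chosen after the sequences had been read, and 11.2% and 7.1% of the promoters held them. A missing match says only that these letters are not in this window.

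In proximal organoids all 4 genes were lower with Cdx2-sgRNA than with Scramble-sgRNA in WENR-minus, and Gucy2c and both ligand genes were lower in WENR-plus as well. Genes were counted as called when the adjusted p was below 0.05 and the log2 change exceeded 1 either way. By this rule 4 of 4 members fell in WENR-minus, where 12.1% of the 15289 genes tested were called lower, and 3 of 4 fell in WENR-plus, where 8.94% were. The median log2 change of the members was -5.99 in WENR-minus and -5.52 in WENR-plus, against 0.00 and -0.05 over all genes tested. In bulk libraries, fewer cells that express a gene and less RNA per cell cannot be told apart.

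**Figure D1:**
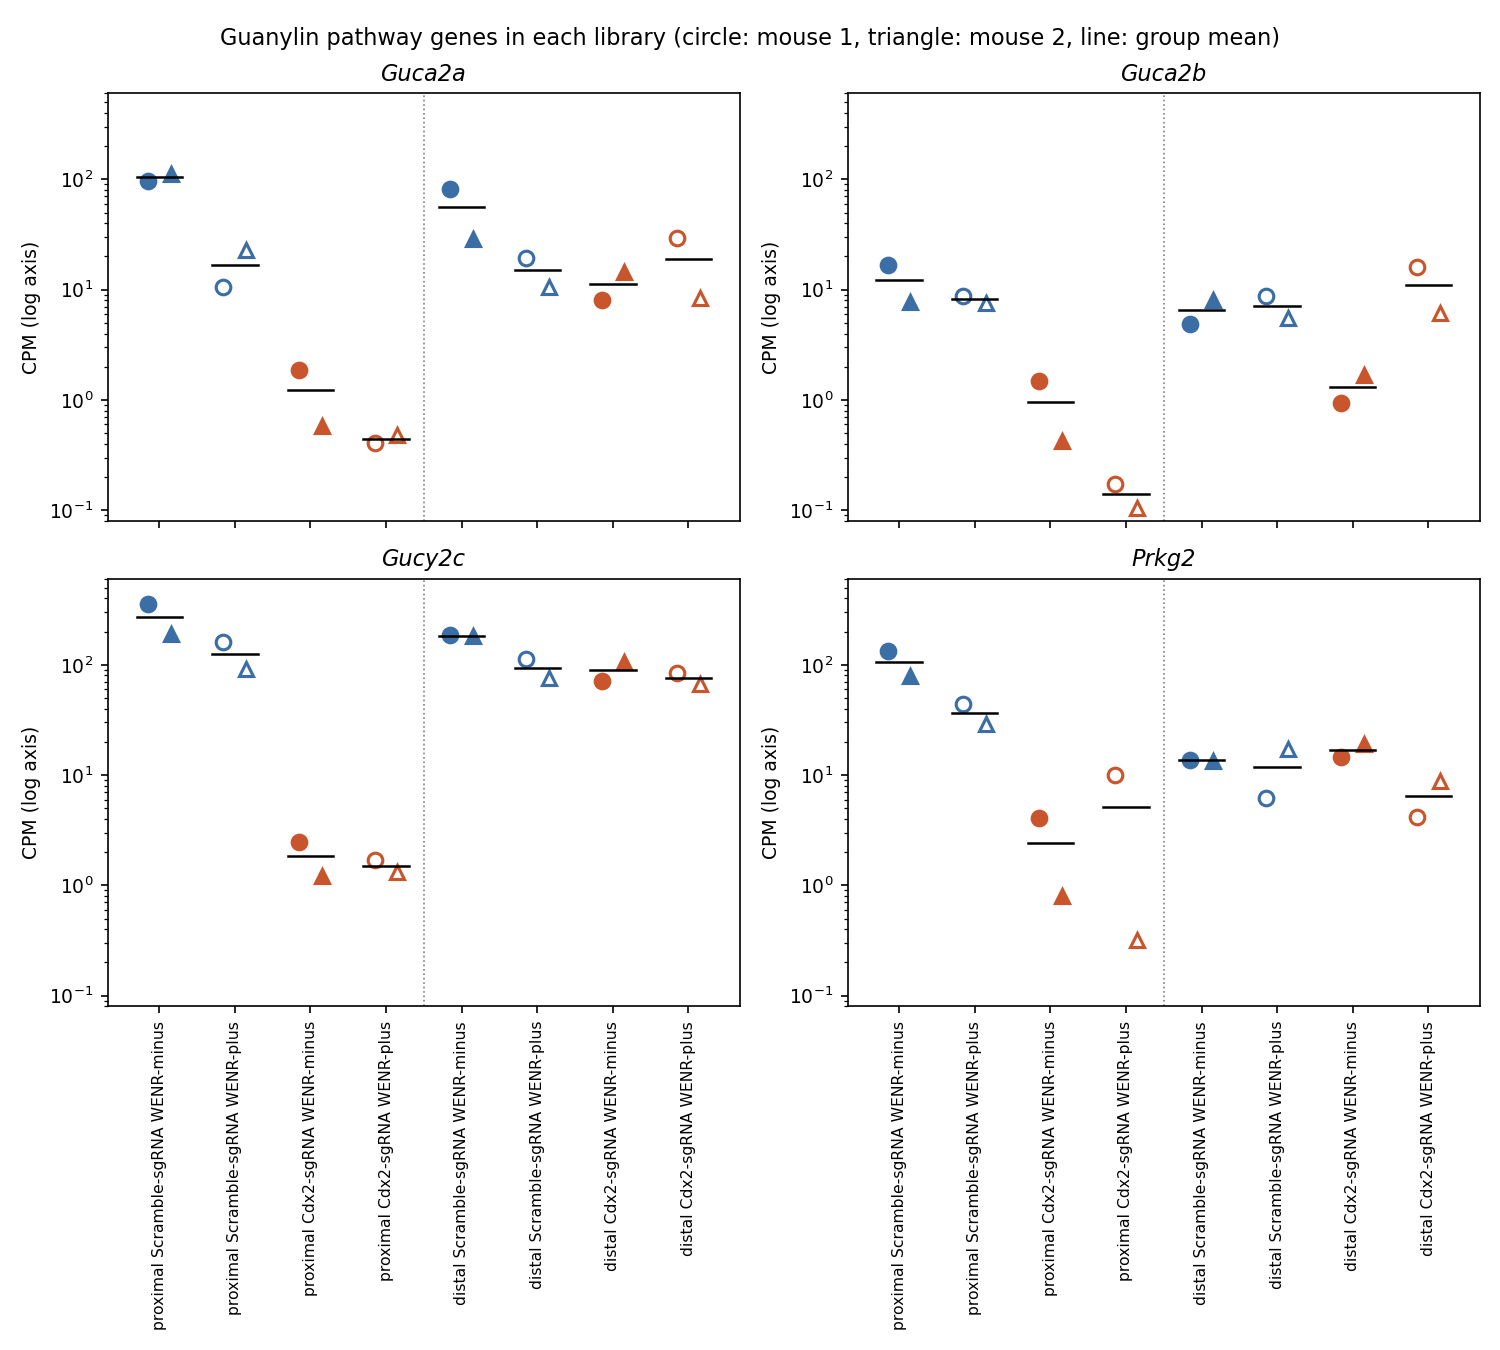
CPM (log axis) of Guca2a, Guca2b, Gucy2c and Prkg2 in each of the 16 libraries, with Scramble-sgRNA in blue, Cdx2-sgRNA in orange, WENR-minus filled, WENR-plus open, and lines at the group means. For Guca2a the proximal Cdx2-sgRNA libraries lie below all others, and for Gucy2c they lie between 1.22 and 2.45 CPM while the other libraries lie at 67.0 CPM or above.

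The receptor gene Gucy2c fell in both media. In WENR-minus it measured 352 and 191 CPM in the proximal Scramble-sgRNA libraries and 2.45 and 1.22 CPM with Cdx2-sgRNA. These levels rest on 5681 and 3662 reads against 33 and 23 reads, and the groups were far apart. On the log2 scale Gucy2c fell by 7.24 (SE 0.50, edgeR quasi-likelihood test, adjusted p = 2.29e-06).

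In WENR-plus Gucy2c measured 159 and 92.0 CPM with Scramble-sgRNA and 1.68 and 1.32 CPM with Cdx2-sgRNA. The fall on the log2 scale was -6.38 (SE 0.48, edgeR adjusted p = 7.86e-06). The Cdx2-sgRNA levels in the 2 media overlapped, with a log2 change between them of 0.25 (95% interval -0.84 to 1.34). Almost all Gucy2c reads fell on the longer of 2 annotated coding transcripts (Gucy2c-201, 3959 bases), except in 1 proximal Cdx2-sgRNA library in WENR-plus whose 25 reads were all assigned to Gucy2c-202.

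The guanylin gene Guca2a followed the receptor. It measured 96.9 and 111 CPM in the proximal Scramble-sgRNA libraries in WENR-minus, from 1563 and 2137 reads, and 1.86 and 0.582 CPM with Cdx2-sgRNA, from 25 and 11 reads. The groups did not overlap, as for 63.9% of all genes tested, and the log2 fold change was -6.48 (SE 0.86, edgeR adjusted p = 0.000242). Without the Cdx2-sgRNA library of mouse 1 it was -7.44, and without that of mouse 2 it was -5.81.

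In WENR-plus Guca2a was at 10.6 and 23.1 CPM with Scramble-sgRNA and at 0.406 and 0.476 CPM with Cdx2-sgRNA, the latter from 7 and 9 reads. This gave a log2 fold change of -5.22 (SE 0.90, edgeR adjusted p = 0.00195), or of -4.53 without the Scramble-sgRNA library of mouse 2. All proximal Cdx2-sgRNA libraries lay below every other library for this gene.

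The uroguanylin gene Guca2b rested on the fewest reads in proximal organoids. In WENR-minus it measured 16.9 and 7.66 CPM in proximal Scramble-sgRNA and 1.48 and 0.423 CPM with Cdx2-sgRNA, and the log2 fold change was -3.72 (SE 0.67, edgeR adjusted p = 0.00182). Without the Cdx2-sgRNA library of mouse 1 it was -4.81, and without that of mouse 2 or the Scramble-sgRNA library of mouse 1 it was nearer 0, at -3.02 in the latter. In WENR-plus it measured 8.84 and 7.57 CPM with Scramble-sgRNA, whereas the Cdx2-sgRNA libraries held only 3 and 2 reads (0.174 and 0.106 CPM). The scaled read ratio of Scramble-sgRNA to Cdx2-sgRNA there was 59.8, with an exact 95% interval of 25.4 to 186 that covers counting error only. The fitted log2 fold change was -5.81 (edgeR adjusted p = 0.000606).

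The kinase gene Prkg2 had a wide spread between the proximal Cdx2-sgRNA clones. In WENR-minus it measured 134 and 79.0 CPM with Scramble-sgRNA and 4.08 and 0.793 CPM with Cdx2-sgRNA, with a log2 fold change of -5.50 (SE 1.15, edgeR adjusted p = 0.00423) that became -7.03 without the Cdx2-sgRNA library of mouse 1 and -4.71 without that of mouse 2. In WENR-plus it measured 44.5 and 28.9 CPM with Scramble-sgRNA, but 9.97 CPM (172 reads) in the Cdx2-sgRNA library of mouse 1 and 0.317 CPM (6 reads) in that of mouse 2. The groups did not overlap, as for 65.2% of all genes tested, and the log2 fold change of -2.84 (SE 1.01) did not pass the test (edgeR adjusted p = 0.0608). Without the library of mouse 1 it was -6.83 (edgeR adjusted p = 0.00397).

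Prkg2 is also the member whose reads were most often shared among transcripts, while Guca2b-202 took at most 3.6% of Guca2b reads. The 1389-base coding transcript Prkg2-204 took 2.9% to 6.5% of the reads in the 4 proximal Scramble-sgRNA libraries and 6.4% to 46.2% in the other 12 libraries. The highest shares were 45.7% and 46.2%, in the proximal Cdx2-sgRNA libraries of mouse 2, which held 15 and 6 reads of the gene. Most remaining reads were assigned to the 4968-base Prkg2-203, and no test was run on these shares.

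**Figure D2:**
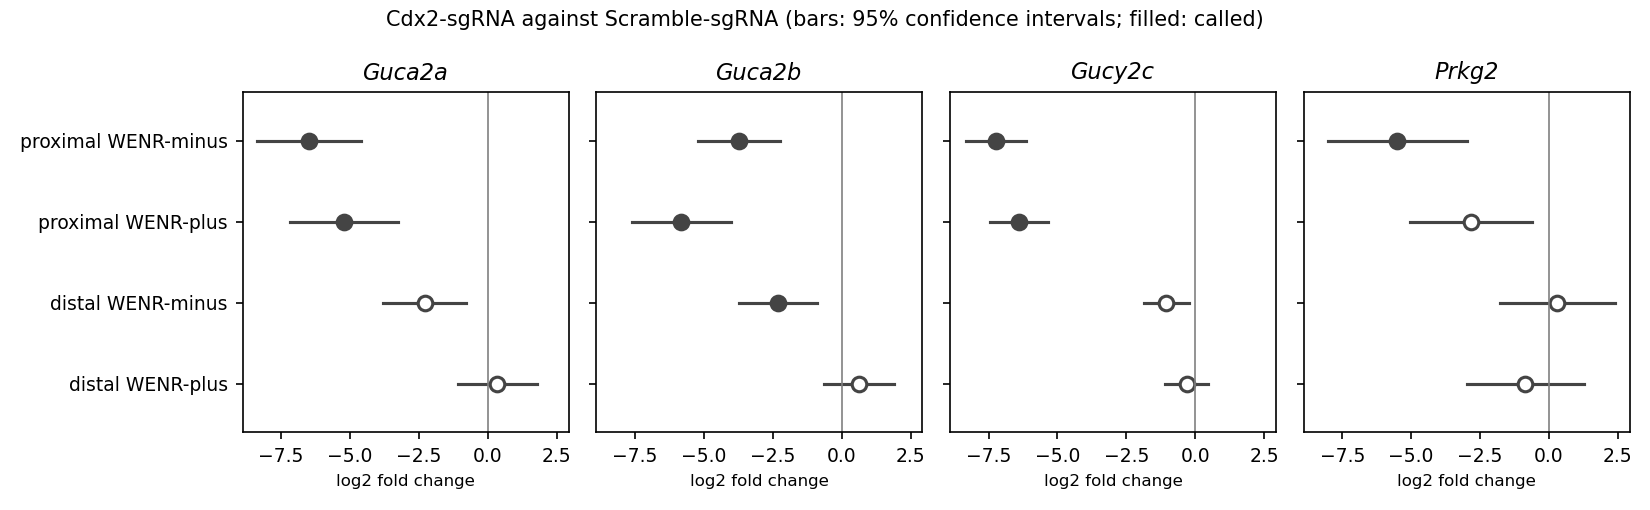
Log2 fold change of Cdx2-sgRNA against Scramble-sgRNA for the 4 genes in each region and medium, with 95% confidence intervals of the edgeR fit and filled points where the change was called. All 7 filled proximal points lie at -3.72 or lower, and the only filled distal point is Guca2b in WENR-minus at -2.31.

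In distal organoids the same comparison gave smaller values. In WENR-minus only Guca2b was called lower, 1 of 4 members, where 3.00% of all genes tested were called lower. In WENR-plus none of the 4 was called by edgeR or by DESeq2 and none had an unadjusted p below 0.05, where 0.262% of all genes were called in either direction.

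Distal Guca2b in WENR-minus measured 4.92 and 8.03 CPM with Scramble-sgRNA and 0.931 and 1.67 CPM in the libraries labelled Cdx2-sgRNA, from 11 and 20 reads. The groups did not overlap, as for 56.4% of all genes tested, and the log2 fold change was -2.31 (SE 0.65, edgeR adjusted p = 0.0476). This call was lost when any of the 4 libraries was left out, with values from -2.80 to -1.91 and adjusted p from 0.0762 to 0.238, and with length-scaled counts (adjusted p = 0.0525).

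Distal Guca2a in WENR-minus was at 82.3 and 28.7 CPM with Scramble-sgRNA and at 8.12 and 14.5 CPM with Cdx2-sgRNA. The change of -2.30 (SE 0.68) on the log2 scale did not pass the test (edgeR adjusted p = 0.0562), although DESeq2 called it (adjusted p = 0.00673), and was -1.35 without the Scramble-sgRNA library of mouse 1. In WENR-plus the groups overlapped, with 19.3 and 10.6 CPM against 29.5 and 8.41 CPM.

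Distal Gucy2c was at 67.0 CPM or above with either guide. In WENR-minus it measured 185 and 183 CPM with Scramble-sgRNA and 71.4 and 107 CPM in the libraries labelled Cdx2-sgRNA, with a log2 fold change of -1.05 (SE 0.37, 95% interval -1.85 to -0.24). This missed the threshold (edgeR adjusted p = 0.0963) and was called by DESeq2 (adjusted p = 0.0419) and in a fit of the compared libraries alone (adjusted p = 0.0488). In WENR-plus the values were 112 and 76.6 CPM against 84.5 and 67.0 CPM, and the log2 fold change of -0.32 had a 95% interval of -1.11 to 0.48.

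Distal Prkg2 was low with both guides. It measured 13.8 and 13.5 CPM with Scramble-sgRNA and 14.7 and 18.99 CPM with Cdx2-sgRNA in WENR-minus, where the log2 fold change was 0.31 with a 95% interval of -1.78 to 2.39. In WENR-plus it measured 6.26 and 17.3 CPM against 4.18 and 8.78 CPM, and the groups overlapped. These intervals are wide enough to hold changes of more than 2-fold either way.

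Whether the guide effect depended on the region was tested directly, by taking the distal log2 fold change from the proximal one. In each medium 3 of 4 members were called, all toward a stronger fall in proximal organoids, where 9.08% of the genes tested were called in that direction in WENR-minus and 3.76% in WENR-plus. In WENR-minus Gucy2c gave a log2 difference of -6.20 (SE 0.59, edgeR adjusted p = 5.88e-05). In WENR-plus it gave -6.07 (SE 0.59, adjusted p = 0.000153), and both calls held without each of the 8 libraries in turn.

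For Guca2a the difference in WENR-minus was -4.18 (SE 1.03, edgeR adjusted p = 0.0188). That in WENR-plus was -5.56 (SE 1.12, adjusted p = 0.0146). The call in WENR-minus was lost without the mouse 2 library of proximal Cdx2-sgRNA (-3.51), of distal Scramble-sgRNA (-3.61) or of distal Cdx2-sgRNA (-3.71), with adjusted p from 0.0624 to 0.0840. In WENR-plus it was lost without the mouse 1 library of distal Cdx2-sgRNA (-4.37) or without the mouse 2 library of proximal Scramble-sgRNA (-4.91), proximal Cdx2-sgRNA (-5.68) or distal Scramble-sgRNA (-5.21), with adjusted p from 0.0510 to 0.0657.

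For Guca2b the difference was called in WENR-plus at -6.45 (SE 1.01, edgeR adjusted p = 0.00384), or -5.56 without the distal Cdx2-sgRNA library of mouse 1, but not in WENR-minus at -1.41 (SE 0.91, adjusted p = 0.315), where the distal level was low as well. For Prkg2 it was called in WENR-minus at -5.81 (SE 1.46, edgeR adjusted p = 0.0201) and not in WENR-plus at -1.99 (SE 1.37, adjusted p = 0.451). The Prkg2 call was lost without the mouse 1 or mouse 2 library of distal Scramble-sgRNA (-5.82 and -5.79), the mouse 1 library of proximal Scramble-sgRNA (-5.35) or the mouse 2 library of proximal Cdx2-sgRNA (-5.02), with adjusted p from 0.0622 to 0.0835. Without the mouse 1 library of proximal Cdx2-sgRNA in WENR-plus, the Prkg2 difference in that medium was -5.97 (adjusted p = 0.0286).

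Markers of the differentiated cells that could hold these RNAs moved in the same libraries. The summed level of 8 goblet cell markers was 6201 to 7270 CPM in proximal Scramble-sgRNA and 55.5 to 68.1 CPM in proximal Cdx2-sgRNA in WENR-minus, with 8 of 8 markers called lower. In WENR-plus it was 752 to 1161 CPM against 35.8 to 45.5 CPM, with 6 of 8 lower. Of 8 colonocyte markers 6 were lower in WENR-minus, and 4 were lower and 1 higher in WENR-plus.

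Of the 6 enteroendocrine markers tested, 6 were lower in WENR-minus and 4 in WENR-plus in proximal Cdx2-sgRNA organoids. Of the 7 listed 1, Sct, was at 0 in both proximal groups in WENR-minus. In distal organoids the goblet sums of the guides overlapped, at 5711 to 10710 CPM with Scramble-sgRNA and 5676 to 14830 CPM with Cdx2-sgRNA in WENR-minus, and at 867 to 1509 and 735 to 2805 CPM in WENR-plus. The distal colonocyte sum did not overlap in WENR-minus, at 7777 to 12100 CPM with Scramble-sgRNA and 16170 to 17440 CPM with Cdx2-sgRNA, with 1 of 8 markers called higher and 1 lower.

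Of 5 epithelial markers 2 were called lower with Cdx2-sgRNA in proximal WENR-minus, where their sum was 9560 to 10350 CPM with Scramble-sgRNA and 5822 to 5919 CPM with Cdx2-sgRNA. Summed tuft cell markers were at 2.45 to 11.5 CPM in proximal Cdx2-sgRNA and at 0.533 CPM or lower in the other 12 libraries. Il25 was at 0 in every group of either region and guide, and only 1 of the 5 tuft cell markers had enough reads to be tested. Paneth cell markers summed to 716 to 1034 CPM in proximal Cdx2-sgRNA in WENR-plus against 19.8 to 87.6 CPM in Scramble-sgRNA, with Defa17 at 0 in both and Defa24 at 0 in the former. The sum of 5 immune cell markers was 2.17 to 20.3 CPM in proximal Cdx2-sgRNA and at most 1.51 CPM in the other groups. Only 1 of these 5 had enough reads to be tested. In proximal Cdx2-sgRNA Cd3e and Lyz2 were at 0 in WENR-minus and Cd79a was at 0 in WENR-plus. The 5 stem cell markers summed to 306 to 323 CPM in proximal Scramble-sgRNA and 327 to 360 CPM in proximal Cdx2-sgRNA in WENR-plus, with 1 called higher and 1 lower in each medium. The part of these marker shifts in the member changes was not tested.

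Withdrawal of the niche factors was compared next, as WENR-minus against WENR-plus in each kind of organoid. In Scramble-sgRNA organoids Guca2a rose in both regions and Gucy2c rose in proximal organoids, and in the distal Cdx2-sgRNA libraries Guca2b fell. Of 4 members, 2 were called higher in proximal Scramble-sgRNA, where 8.73% of the genes tested were, and 1 in distal Scramble-sgRNA, where 12.2% were. In proximal Cdx2-sgRNA edgeR called none of the 4 (1 had an unadjusted p below 0.05, DESeq2 called 1), where 6.40% of genes were called in either direction. In distal Cdx2-sgRNA 1 was called lower, where 18.1% of genes were.

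**Figure D3:**
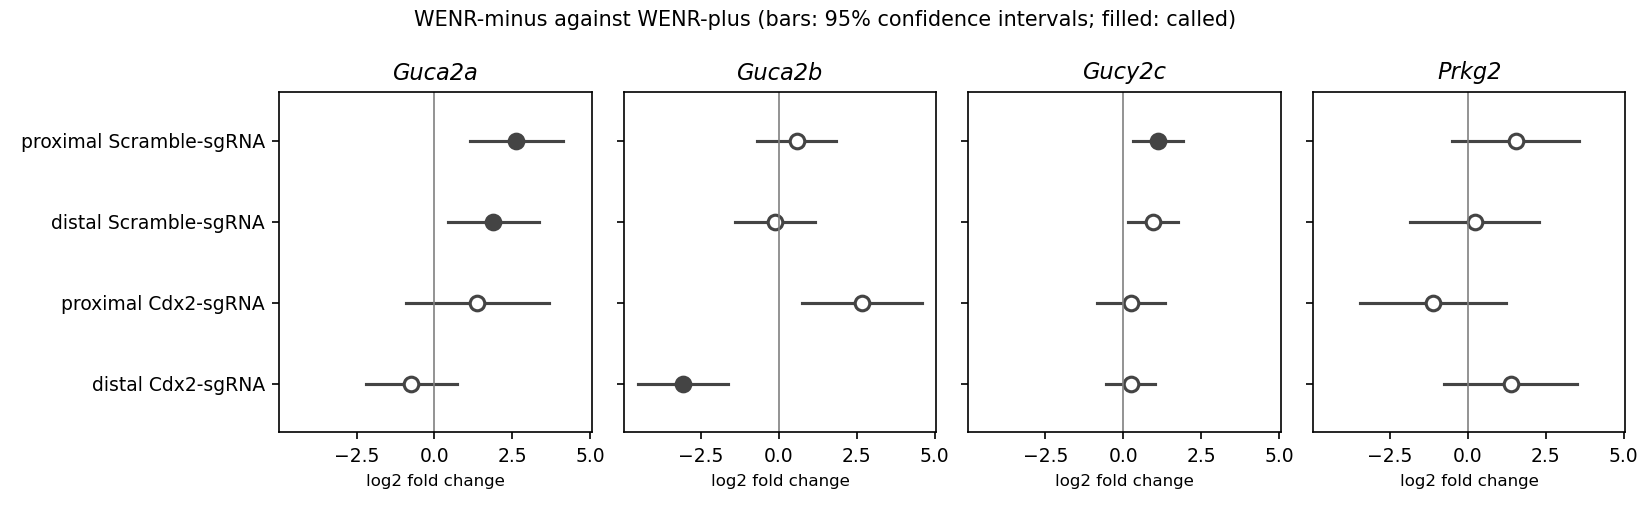
Log2 fold change of WENR-minus against WENR-plus for the 4 genes in each region and guide, with 95% confidence intervals of the edgeR fit and filled points where the change was called. The filled points are Guca2a in proximal (2.63) and distal (1.89) Scramble-sgRNA, Gucy2c in proximal Scramble-sgRNA (1.11) and Guca2b in distal Cdx2-sgRNA (-3.08).

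Proximal Scramble-sgRNA Guca2a went from 10.6 to 96.9 CPM in the organoids of mouse 1 and from 23.1 to 111 CPM in those of mouse 2. The rise on the log2 scale was 2.63 (SE 0.68, edgeR adjusted p = 0.0140). Without the WENR-plus library of mouse 1 it was 2.22 and was no longer called (adjusted p = 0.103).

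In distal Scramble-sgRNA organoids Guca2a went from 19.3 to 82.3 CPM and from 10.6 to 28.7 CPM. The log2 fold change was 1.89 (SE 0.66, edgeR adjusted p = 0.0403), and it was called without the WENR-minus library of mouse 2 but not without the WENR-minus library of mouse 1 (0.94, adjusted p = 0.376), the WENR-plus library of mouse 1 (2.44, adjusted p = 0.0619) or that of mouse 2 (1.62, adjusted p = 0.200). In the distal libraries labelled Cdx2-sgRNA the values were split, from 29.5 to 8.12 CPM in mouse 1 and from 8.41 to 14.5 CPM in mouse 2. The change there was -0.75 (SE 0.67, edgeR adjusted p = 0.386).

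Guca2b was not called by medium in Scramble-sgRNA organoids, and its change was not tested against that of Guca2a. Its log2 fold change was 0.58 (95% interval -0.69 to 1.84) in the proximal and -0.13 (95% interval -1.41 to 1.15) in the distal region, and the groups overlapped in both. In proximal Cdx2-sgRNA Guca2b went from 3 to 20 reads in mouse 1 and from 2 to 8 in mouse 2. That rise of 2.67 (SE 0.88) was not called by edgeR (adjusted p = 0.0690) but was called by DESeq2 (2.75, adjusted p = 0.0199). In the distal libraries labelled Cdx2-sgRNA Guca2b fell from 16.05 to 0.931 CPM in mouse 1 and from 6.08 to 1.67 CPM in mouse 2. The log2 fold change was -3.08 (SE 0.66, edgeR adjusted p = 0.00248), and the call held without each of the 4 libraries in turn, at -2.15 without the WENR-plus library of mouse 1.

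Gucy2c rose from 159 to 352 CPM and from 92.0 to 191 CPM in proximal Scramble-sgRNA, with a log2 fold change of 1.11 (SE 0.36, edgeR adjusted p = 0.0401). The call was lost without the WENR-minus library of mouse 1 (0.62, adjusted p = 0.326), without the WENR-plus library of mouse 2 (0.81, adjusted p = 0.235) and in a fit of the compared libraries alone (1.101, adjusted p = 0.0852). In distal Scramble-sgRNA the values went from 112 to 185 CPM and from 76.6 to 183 CPM, with a log2 change of 0.96 (SE 0.36, edgeR adjusted p = 0.0546) just outside both thresholds. DESeq2 called this change (1.03, adjusted p = 0.0187). So did edgeR with RLE factors (1.03, adjusted p = 0.0430) and without mitochondrial genes (1.03, adjusted p = 0.0428).

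Prkg2 went from 44.5 to 134 CPM and from 28.9 to 79.0 CPM in proximal Scramble-sgRNA, a ratio of 3.01 in mouse 1 and 2.74 in mouse 2. This log2 change of 1.53 (SE 0.93) was not called in the fit of all libraries without a block (edgeR adjusted p = 0.244), but was called in an edgeR fit of the compared libraries alone (1.52, adjusted p = 0.0260) and without a filter on low counts (1.57, SE 0.25, adjusted p = 6.74e-09). With the culture as a replicate block, which compares the media within each culture, it was 1.52 and was called (edgeR adjusted p = 0.00611). In distal Cdx2-sgRNA the blocked change was 1.43 (adjusted p = 0.0108) against 1.37 without the block (adjusted p = 0.272), and the other 2 fits called it too (1.35 and 1.42, adjusted p = 0.0386 and 3.50e-07), from ratios of 3.52 and 2.16 in the 2 cultures.

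The medium comparison carried its own marker shift. Of 8 colonocyte markers 7 were called higher in WENR-minus in proximal Scramble-sgRNA, distal Scramble-sgRNA and distal Cdx2-sgRNA alike, and 1 in proximal Cdx2-sgRNA. Of 8 goblet markers 4 were higher in each of the first 3, while in proximal Cdx2-sgRNA their sum went from 35.8 to 45.5 CPM in WENR-plus to 55.5 to 68.1 CPM in WENR-minus. Of 6 enteroendocrine markers tested, 5 were higher in proximal Scramble-sgRNA, 5 in distal Scramble-sgRNA, and 4 in distal Cdx2-sgRNA, while in proximal Cdx2-sgRNA the sum of all 7 listed was 1.43 to 1.51 CPM in WENR-plus and 0.899 to 1.93 CPM in WENR-minus. Stem cell markers were lower in each, in 2 to 5 of 5, and epithelial markers were higher in each, in 2 to 4 of 5. In proximal Cdx2-sgRNA the Paneth cell marker sum went from 716 to 1034 CPM in WENR-plus to 15.8 to 35.7 CPM in WENR-minus, with 1 of 2 tested markers called lower. Their part in the changes of Guca2a, Guca2b and Gucy2c was not tested.

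Whether the guide effect differed between the media was tested as well. No member was called in either region by edgeR or by DESeq2 in the fit of all libraries with the filter on low counts, where 3.60% of the genes tested were called in the proximal and 0.00% in the distal region by edgeR. None had an unadjusted p below 0.05 in the proximal region and 2 had in the distal region, Guca2a at -2.64 (SE 0.94, adjusted p = 0.406) and Guca2b at -2.95 (SE 0.87, adjusted p = 0.323). For proximal Prkg2 the difference of -2.66 (adjusted p = 0.311) became -2.29 with the culture as a replicate block and was then called (edgeR adjusted p = 0.0368), but without the WENR-plus Cdx2-sgRNA library of mouse 1 it was 1.32 in the unblocked fit. Whether the region effect in Scramble-sgRNA organoids differed between the media was tested too, and in that fit no member was called by edgeR or DESeq2 or had an unadjusted p below 0.05, where edgeR called 0.0719% of the genes tested.

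Between the regions, Scramble-sgRNA organoids showed no called member in either medium by edgeR or by DESeq2 in the fit of all libraries, where edgeR called 6.08% of the genes tested in WENR-minus and 1.75% in WENR-plus. Only 1 member had an unadjusted p below 0.05, Prkg2 in WENR-minus. It measured 134 and 79.0 CPM in proximal against 13.8 and 13.5 CPM in distal organoids, with a log2 difference of 2.96 (SE 0.99, edgeR adjusted p = 0.0843). It was called in an edgeR fit of the compared libraries alone (2.97, SE 0.29, adjusted p = 0.00755) and without a filter on low counts (2.95, SE 0.26, adjusted p = 7.91e-27). Dropping the filter hardly moved the change but shrank its SE, and that p-value is not read here as the spread between cultures. In WENR-plus Prkg2 was at 44.5 and 28.9 CPM against 6.26 and 17.3 CPM, with a log2 difference of 1.64 that was called only without that filter (edgeR adjusted p = 0.489 with it, 9.78e-09 without). The groups did not overlap in either medium, as for 55.9% of all genes tested in WENR-minus and 48.4% in WENR-plus.

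The other members had smaller fitted differences between the regions of Scramble-sgRNA organoids. In WENR-minus Gucy2c differed by 0.56 on the log2 scale (95% interval -0.23 to 1.36), and by 0.41 (95% interval -0.38 to 1.21) in WENR-plus, so a difference above about 1.36 lies outside both intervals. For Guca2a the intervals were -0.50 to 2.31 and -1.26 to 1.60. For Guca2b they were -0.36 to 2.20 and -1.06 to 1.47, which leaves room for larger differences.

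With Cdx2-sgRNA the regions separated. Of 4 members 3 were lower in proximal organoids in each medium, where 16.5% of the genes tested were lower in WENR-minus and 9.57% in WENR-plus. For Gucy2c the log2 difference in WENR-minus was -5.64 (SE 0.47, edgeR adjusted p = 5.52e-06). Its difference in WENR-plus was -5.65 (SE 0.47, adjusted p = 1.46e-05). These comparisons use the same Cdx2-sgRNA libraries as the guide comparisons above and are not separate evidence.

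In the same comparison Guca2a differed by -3.27 in WENR-minus (SE 0.81, edgeR adjusted p = 0.00616). Its difference was -5.40 in WENR-plus (SE 0.90, adjusted p = 0.00148), and -4.19 or -6.03 there without the distal library of mouse 1 or mouse 2. The value in WENR-minus was -2.63 and no longer called without the proximal library of mouse 2 (adjusted p = 0.0611). Guca2b was called in WENR-plus at -6.24 (SE 0.82, edgeR adjusted p = 0.000365), or -5.34 without the distal library of mouse 1, and not in WENR-minus at -0.50 (SE 0.70, adjusted p = 0.578). Prkg2 was called in WENR-minus at -2.84 (SE 1.07, edgeR adjusted p = 0.0458) and not in WENR-plus at -0.35 (adjusted p = 0.820).

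The Prkg2 call between regions was lost without the proximal library of mouse 2 (-2.07, edgeR adjusted p = 0.223), without the distal library of mouse 1 (-3.02, adjusted p = 0.0833), without that of mouse 2 (-2.69, adjusted p = 0.119) and with length-scaled counts (-2.77, adjusted p = 0.0501). Without the proximal WENR-plus library of mouse 1 the difference in that medium was -4.33 (adjusted p = 0.0236).

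Ordered by group mean, Gucy2c was highest in proximal Scramble-sgRNA in WENR-minus (271 ± 114 CPM, SD, n = 2) and Guca2a had its highest mean there too (104 ± 10.3 CPM). The distal Scramble-sgRNA mean in WENR-minus came next for both, at 184 ± 1.55 and 55.5 ± 37.9 CPM. For Gucy2c the 4 means from 126 ± 47.7 CPM in proximal Scramble-sgRNA in WENR-plus down to 75.8 ± 12.4 CPM in distal Cdx2-sgRNA in WENR-plus had neighbours whose ranges overlapped. For Guca2a the same held of the ranks from the second to the sixth, down to 11.3 ± 4.49 CPM in distal Cdx2-sgRNA in WENR-minus.

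Guca2b had 5 groups with means between 12.3 ± 6.502 and 6.48 ± 2.19 CPM whose neighbours overlapped, and then 3 lower groups, which were both proximal Cdx2-sgRNA groups and distal Cdx2-sgRNA in WENR-minus (1.30 ± 0.525 CPM). For Prkg2 the 2 proximal Scramble-sgRNA groups led, at 106 ± 38.7 and 36.7 ± 11.04 CPM. They were followed by distal Cdx2-sgRNA in WENR-minus at 16.9 ± 3.01 CPM, and the ranges of all lower neighbours from distal Scramble-sgRNA in WENR-minus downward overlapped.

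Levels can be set against each other between genes only per transcript length, by the deposited TPM. By this measure the mean of Guca2a in proximal Scramble-sgRNA in WENR-minus was 373 ± 63.3 TPM, against 93.5 ± 31.9 TPM for Gucy2c, 41.3 ± 19.2 TPM for Guca2b and 34.4 ± 9.77 TPM for Prkg2 (SD, n = 2). The order was not the same in every library, since in WENR-plus the proximal Scramble-sgRNA library of mouse 1 held 44.97 TPM of Guca2a and 70.3 TPM of Gucy2c. The ratio of Guca2a to Guca2b ranged from 1.24 to 17.3 over the 16 libraries, but in proximal Cdx2-sgRNA it rests on 7 to 25 reads of Guca2a and 2 to 20 of Guca2b, where counting error is large. In proximal Scramble-sgRNA it was 5.99 and 15.1 in WENR-minus. The same ratio was 1.24 and 3.17 in WENR-plus.

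Across the 16 libraries, whose groups differ in guide, region and medium, the log2 CPM of Guca2a and Gucy2c had a Pearson r of 0.938, and Gucy2c ranked 6 among all tested genes by likeness to Guca2a. Guca2a and Guca2b had an r of 0.868, and Prkg2 had an r of 0.645 to 0.777 with the other members. These are descriptions over libraries that share cultures, guides and media.

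By the same measure the 5 genes most like Gucy2c were Papss2 (r = 0.988), B4galnt2, Rgs4, Cdx1 and Cadps2 (r = 0.981), of which Cdx1 encodes the homeobox paralogue of Cdx2. Those most like Guca2a were Apbb2 (r = 0.955), Hsd11b2, AC124169.1, Tnfsf15 and Mgat4b (r = 0.940). Those most like Guca2b were Acaca (r = 0.948), Rasd1, Rph3al, Dock1 and L1cam (r = 0.915). Those most like Prkg2 were Smim13 (r = 0.878), Klra2, Macrod2, Rapgef4 and Fbp2 (r = 0.866). With Spearman's rho in place of r, the 5 nearest genes shared 1 with these for Guca2a, 1 for Guca2b, 0 for Gucy2c and 2 for Prkg2.

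The wider cGMP pathway was followed in a list of 24 genes, which are other cyclases, another cGMP kinase, genes of cGMP breakdown and export, scaffolds and effectors, of which 16 had enough reads to be tested. With Cdx2-sgRNA in proximal organoids 9 of 16 fell and none rose in WENR-minus (edgeR, 11 with an unadjusted p below 0.05, DESeq2 9 lower and 0 higher), and 8 fell and 1 rose in WENR-plus. Of all genes tested 12.1% fell in the former, and 8.94% fell and 6.93% rose in the latter. In distal organoids 2 fell in WENR-minus, where 3.00% of all genes did, and none was called in WENR-plus by edgeR or DESeq2 (2 with an unadjusted p below 0.05). The median log2 change of the list was -2.37 and -2.51 in the proximal and -0.02 and -0.13 in the distal region, against medians between -0.05 and 0.00 over all genes tested.

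**Figure D4:**
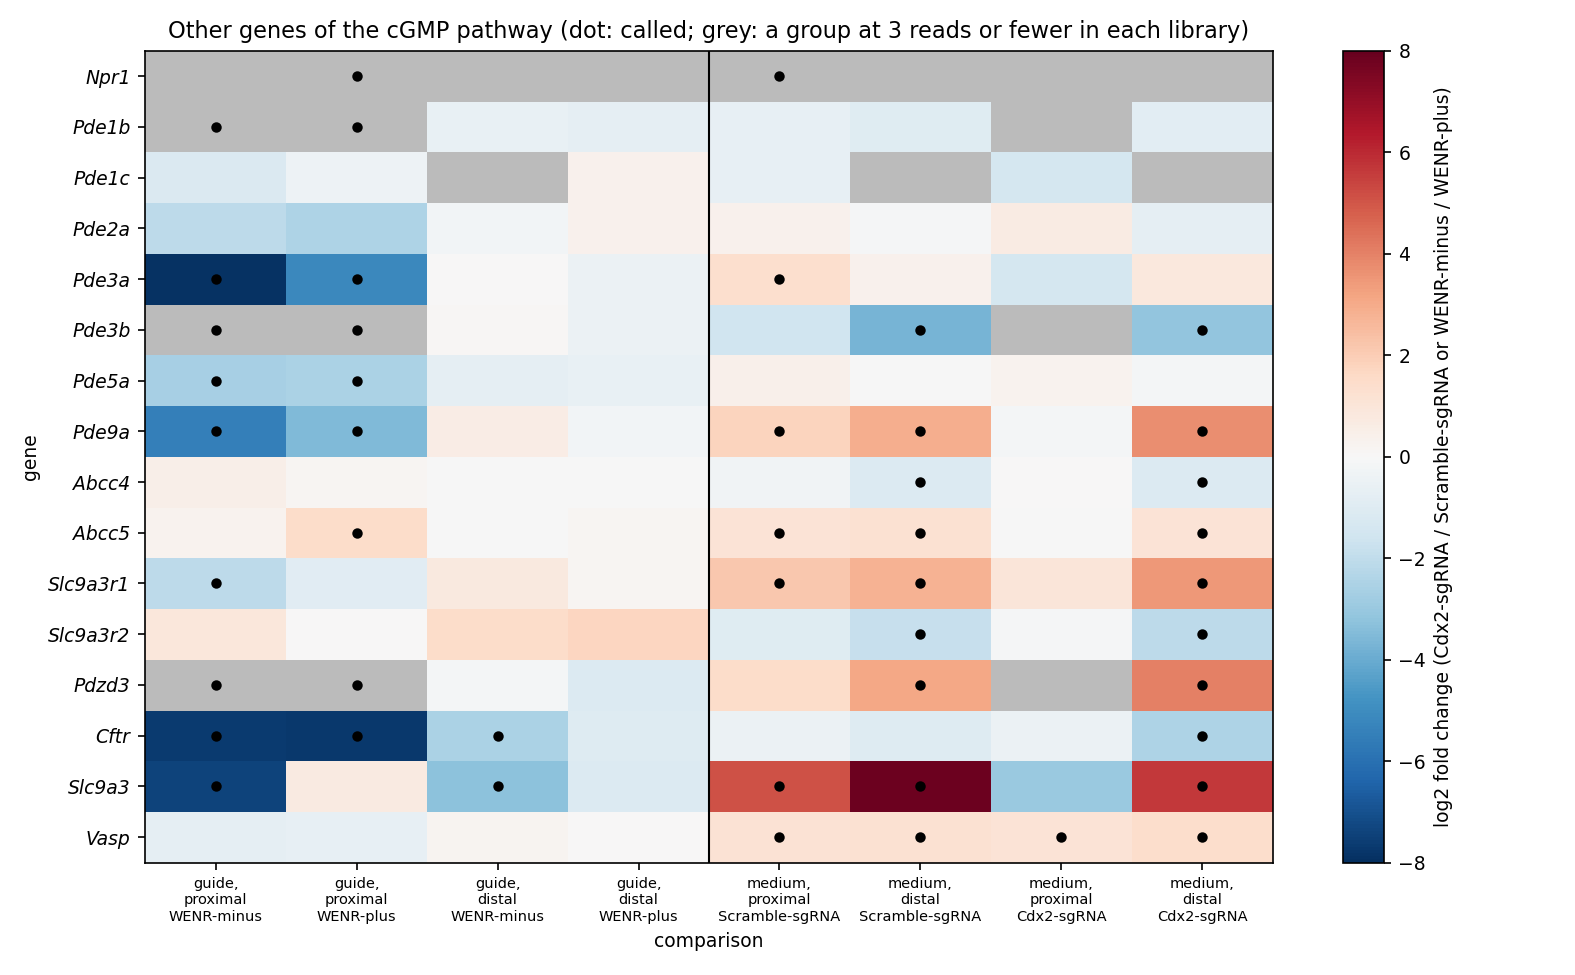
Log2 fold changes of the 16 tested genes of the cGMP pathway (rows) in the 4 guide and 4 medium comparisons (columns), with a dot where the change was called and grey cells where a compared group held 3 reads or fewer in each library. Cftr and Slc9a3 carry called falls in proximal Cdx2-sgRNA organoids in WENR-minus (-7.69 and -7.41), and Vasp carries called rises in WENR-minus medium in all 4 kinds of organoid.

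Among the effectors, Cftr, the chloride channel, measured 109 ± 27.8 CPM in proximal Scramble-sgRNA and 0.503 ± 0.186 CPM with Cdx2-sgRNA in WENR-minus (log2 fold change -7.69, SE 0.76, edgeR adjusted p = 3.34e-05). In WENR-plus it measured 152 ± 8.77 against 0.718 ± 0.0314 CPM (-7.71, SE 0.73, adjusted p = 4.29e-05). It was also called in distal WENR-minus, at 50.1 ± 1.69 against 8.68 ± 6.17 CPM (-2.53, SE 0.56, adjusted p = 0.0196), and had -1.04 (adjusted p = 0.821) in distal WENR-plus.

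Slc9a3, the sodium/hydrogen exchanger NHE3, fell from 74.7 ± 50.04 to 0.434 ± 0.0158 CPM in proximal WENR-minus (-7.41, SE 0.99, edgeR adjusted p = 0.000253) and from 404 ± 220 to 41.6 ± 15.2 CPM in distal WENR-minus (-3.28, SE 0.72, adjusted p = 0.0187). The 2 distal calls of the list, Cftr and Slc9a3, were both lost without either Scramble-sgRNA library or without the Cdx2-sgRNA library of mouse 1, and 1 was left without the Cdx2-sgRNA library of mouse 2. In WENR-plus Slc9a3 was at 3.48 CPM or lower in every group mean, with values of 0.70 (adjusted p = 0.557) in the proximal and -1.11 (adjusted p = 0.968) in the distal region. Vasp, a cytoskeletal substrate of cGMP-dependent kinases, was not called between the guides.

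Among the genes of cGMP breakdown and export, 5 of 9 tested fell in each medium in proximal Cdx2-sgRNA, and Abcc5, an exporter, rose in WENR-plus (1.44, SE 0.38, edgeR adjusted p = 0.0179). Pde5a, the cGMP-specific phosphodiesterase, fell from 181 ± 19.9 to 29.1 ± 6.52 CPM in WENR-minus (-2.64, SE 0.23, adjusted p = 1.28e-05) and from 137 ± 0.949 to 23.5 ± 6.93 CPM in WENR-plus (-2.55, SE 0.23, adjusted p = 2.92e-05). In distal organoids Pde5a had -0.71 (adjusted p = 0.0626) and -0.59 (adjusted p = 0.588). Pde3a, a phosphodiesterase that cGMP inhibits, fell from 76.2 ± 31.0 to 0.339 ± 0.255 CPM in proximal WENR-minus (-7.89, SE 0.57, adjusted p = 3.57e-06).

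Pde1b, a calmodulin-dependent phosphodiesterase, had 11 to 43 reads in proximal Scramble-sgRNA in WENR-plus and 0 with Cdx2-sgRNA, which makes it at least 8.13-fold lower against a floor of 3 reads per library. Of the 3 scaffold genes tested 2 fell in proximal WENR-minus. Slc9a3r1, which encodes the scaffold NHERF1, fell from 576 ± 51.4 to 137 ± 3.62 CPM (-2.07, SE 0.15, edgeR adjusted p = 3.19e-06). Pdzd3, a scaffold that binds guanylate cyclase C, held 31 reads in each proximal Scramble-sgRNA library in WENR-minus and 0 with Cdx2-sgRNA, at least 9.27-fold lower, and 9 to 15 against 0 reads in WENR-plus, at least 3.76-fold lower. In distal organoids Pdzd3 was not called (-0.14 and -1.08).

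Other sources of cGMP were scarce. Npr1, a natriuretic peptide receptor, was the only tested gene of the 4 other cyclases. It was called lower in proximal Cdx2-sgRNA in WENR-plus, where 26 reads in proximal Scramble-sgRNA against 2 with Cdx2-sgRNA gave a scaled ratio of 12.4 (exact 95% interval 3.11 to 108). Npr2, Gucy1a1 and Gucy1b1 had at most 2 reads in any library. Prkg1, the other cGMP kinase gene, had 0 to 6 reads and was not tested.

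In the medium comparisons the list moved both ways. In WENR-minus 6 rose and 1 fell in proximal Scramble-sgRNA, 6 rose and 3 fell in distal Scramble-sgRNA, 6 rose and 4 fell in distal Cdx2-sgRNA, and only Vasp rose in proximal Cdx2-sgRNA (1.12, SE 0.17, edgeR adjusted p = 0.00340). A fit of those 4 libraries alone called 0 of all genes in proximal Cdx2-sgRNA, Vasp included. Of all genes tested 8.73% rose and 8.24% fell in the first, 12.2% and 14.2% in the second, 14.9% and 18.1% in the third, and 3.42% rose in the last. In proximal Scramble-sgRNA 4 genes in all were called without the WENR-minus library of mouse 1 or the WENR-plus library of mouse 2, and in distal Cdx2-sgRNA 6 without the WENR-minus library of mouse 2. The count in proximal Cdx2-sgRNA was 0 without the WENR-plus library of mouse 2 and 3 without that of mouse 1. The median log2 change of the list was 0.36, -0.01, 0.35 and -0.05, against -0.06, -0.11, -0.10 and -0.03 over all genes tested.

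Slc9a3 had the largest called rise of the list in each of the first 3, of 5.11 (SE 0.82, edgeR adjusted p = 0.00126) in proximal Scramble-sgRNA, 7.85 (SE 0.91, adjusted p = 0.000107) in distal Scramble-sgRNA and 5.68 (SE 0.89, adjusted p = 0.000332) in distal Cdx2-sgRNA. In proximal Cdx2-sgRNA it had -3.00 (SE 1.02, adjusted p = 0.0764). Next came Slc9a3r1 in proximal Scramble-sgRNA (2.15, SE 0.15, adjusted p = 3.57e-05) and Pdzd3 in distal Scramble-sgRNA (3.09, SE 0.68, adjusted p = 0.00540) and distal Cdx2-sgRNA (4.03, SE 0.73, adjusted p = 0.00150).

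At the other end, Cftr fell in distal Cdx2-sgRNA in WENR-minus (-2.50, SE 0.56, edgeR adjusted p = 0.00322). Its values in the other 3 were -0.49, -1.02 and -0.46 in proximal Scramble-sgRNA, distal Scramble-sgRNA and proximal Cdx2-sgRNA, none of them called. Pde3b, which encodes a phosphodiesterase that cGMP inhibits, fell in distal Scramble-sgRNA (-3.71, SE 1.1002, adjusted p = 0.0190) and distal Cdx2-sgRNA (-3.17, SE 1.09, adjusted p = 0.0320), and Slc9a3r2, another NHERF scaffold, fell in distal Scramble-sgRNA (-1.84, SE 0.59, adjusted p = 0.0277). Npr1 fell in proximal Scramble-sgRNA, from 26 reads in WENR-plus to 2 in WENR-minus (scaled ratio 12.1, exact 95% interval 3.04 to 106), a call that DESeq2 did not make, and Abcc5 had the smallest called rise there (1.098, SE 0.37, adjusted p = 0.0468). Pde5a stayed within -0.13 to 0.40 in the 4 comparisons and was not called.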

How the data were processed

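RNA was sequenced by the authors with a stranded total RNA kit and quantified with Salmon 1.1.0 against GENCODE transcripts (mm10). The deposited values per transcript are estimated counts and TPM, the latter scaled by the authors to transcript length and library total. Estimated counts were summed per gene with GENCODE vM21, which matched 139864 of 140748 transcripts (unmatched ones held 0.257% to 0.509% of reads), and rounded. The members and lists were chosen with earlier results of these data known. By the rule for naming, the text names the 4 members and Cdx2, in each guide and medium comparison the called pathway genes with the 2 highest and 2 lowest changes plus Cftr, Slc9a3, Prkg1, Pde5a and Pdzd3, and the 5 genes most like each member.

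All 16 libraries entered 1 edgeR 4.0.16 quasi-likelihood fit (R 4.3.3) with 8 group means, TMM scaling and edgeR's filter on low counts (15289 genes, 8 residual degrees of freedom). P-values were adjusted by Benjamini-Hochberg over all genes in each of 17 contrasts. Correlations used log2 CPM with a prior count of 2. DESeq2 1.42.0 was an alternative, as were other scalings, filters, replicate blocks and single libraries left out. The fit was tested on simulated data.

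Replicate numbers mark biological replicates, which the study derived from independent mice. Neither the labels nor the study's methods say that a number is the same mouse across regions and guides. The deviations of libraries of the same culture in the 2 media correlated at 0.28 to 0.59 (4 pairs) and those of other cultures at -0.06 to 0.19 (24 pairs). The culture was therefore used as a block for the media in an alternative fit. The main fit, and the medium values taken from it, ignore this pairing. With 2 libraries per group, from 2 mice in long culture, p-values of the main fit measure the spread between these cultures. Intervals of read ratios and floors of 3 reads cover counting error only.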

Additional observations from a re-analysis of the deposited data

Results flagged for a closer look

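The guide effect differed between the regions, by the test of the difference itself (edgeR, adjusted over all genes), in 6 of the 8 member tests, where 9.08% of all genes were called in this direction in WENR-minus and 3.76% in WENR-plus. On the log2 scale the proximal minus distal difference was -6.20 for Gucy2c in WENR-minus and -6.07 in WENR-plus, -4.18 for Guca2a in WENR-minus and -5.56 in WENR-plus, -6.45 for Guca2b in WENR-plus and -5.81 for Prkg2 in WENR-minus. The Guca2a calls and the Prkg2 call were each lost when any of several single libraries was left out. With 2 libraries per group, no library could be tested for standing apart from its group.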

How the results depend on the processing

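All values are log2 changes from edgeR unless another tool is named, and the cause of a changed call was not tested. The proximal guide calls of Guca2a, Guca2b and Gucy2c in both media and of Prkg2 in WENR-minus held in each left-out-library fit and in each other setting that gave a value. With counts of at least 10 in every library, only Gucy2c of the members was left to test, in 17 comparisons, and no call of it changed. Leaving the left-out-library fits aside, where it was not computed, no setting moved the median of all genes by over 0.1.

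Fits of the compared libraries alone lost Gucy2c by medium in proximal Scramble-sgRNA (1.101) and gained Prkg2 there (1.52), Prkg2 by medium in distal Cdx2-sgRNA (1.35), distal Gucy2c by guide in WENR-minus (-1.07) and Prkg2 by region in Scramble-sgRNA in WENR-minus (2.97). Gucy2c by medium in distal Scramble-sgRNA was gained with RLE factors (1.03), with DESeq2 (1.03) and without mitochondrial genes (1.03). DESeq2 also gained Guca2b by medium in proximal Cdx2-sgRNA (2.75) and, by guide in distal WENR-minus, Guca2a (-2.29) and Gucy2c (-1.03). Length-scaled counts lost Guca2b by guide in distal WENR-minus (-2.38) and Prkg2 by region in Cdx2-sgRNA in WENR-minus (-2.77).

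Without a filter on low counts 15 results gained a call and none lost one. By medium these were Prkg2 in proximal Scramble-sgRNA (1.57), proximal Cdx2-sgRNA (-1.12) and distal Cdx2-sgRNA (1.42), and Guca2a (1.37) and Guca2b (2.66) in proximal Cdx2-sgRNA. By guide they were Prkg2 in proximal WENR-plus (-2.79), and Guca2a (-2.29) and Gucy2c (-1.03) in distal WENR-minus. By region in Scramble-sgRNA they were Prkg2 in WENR-minus (2.95) and in WENR-plus (1.62). Among the differences they were Prkg2 guide by region in WENR-plus (-1.94), guide by medium for proximal Prkg2 (-2.69), distal Guca2a (-2.62) and distal Guca2b (-2.92), and Prkg2 region by medium (1.33). The SE of Prkg2 by region in Scramble-sgRNA in WENR-minus was 0.26 in this fit and 0.99 in the main fit. The p-values of the unfiltered fit are thus not read as the spread between cultures.

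With the replicate number as a block, 68 of 68 member results kept their call. With the culture as a replicate block within each medium pair, 25 of 28 did, and Prkg2 gained calls by medium in proximal Scramble-sgRNA (1.52) and distal Cdx2-sgRNA (1.43) and in guide by medium in proximal organoids (-2.29). All-gene counts moved from 978 to 1546 by medium in proximal Cdx2-sgRNA, from 550 to 1596 and from 0 to 48 for guide by medium in proximal and distal organoids, and from 11 to 199 for region by medium. A fit of the compared libraries alone moved the first 2 the other way, to 0 and to 82, and gave 4 in place of 40 by guide in distal WENR-plus and 3 in place of 11 for region by medium. The block by replicate number gave 65 for the former, 20 for the latter and 829 and 8 for guide by medium in proximal and distal organoids.

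Leaving out 1 library gave these ranges where a call or a direction changed. By medium in proximal Scramble-sgRNA they were 2.22 to 3.33 for Guca2a, -0.0809 to 1.0995 for Guca2b and 0.62 to 1.62 for Gucy2c. In proximal Cdx2-sgRNA they were 1.59 to 3.35 for Guca2b, -0.26 to 0.71 for Gucy2c and -2.63 to 2.86 for Prkg2. In distal Scramble-sgRNA they were 0.94 to 2.46 for Guca2a, -0.53 to 0.29 for Guca2b and -0.29 to 1.22 for Prkg2. In distal Cdx2-sgRNA they were -1.35 to 0.49 for Guca2a and -0.0332 to 0.50 for Gucy2c. By guide they were -6.83 to -1.88 for Prkg2 in proximal WENR-plus and -2.80 to -1.91 for Guca2b in distal WENR-minus. In distal WENR-plus they were -0.82 to 1.02 for Guca2a, -0.22 to 1.22 for Guca2b and -1.46 to 0.0889 for Prkg2.

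By region in Scramble-sgRNA in WENR-plus the ranges were -0.48 to 0.65 for Guca2a, -0.0557 to 0.57 for Guca2b and -0.0341 to 0.78 for Gucy2c. In Cdx2-sgRNA in WENR-minus they were -4.26 to -2.63 for Guca2a, -1.60 to 0.16 for Guca2b and -4.39 to -2.07 for Prkg2, and in WENR-plus -4.33 to 0.62 for Prkg2. For guide by region they were -5.14 to -3.51 for Guca2a and -7.34 to -5.02 for Prkg2 in WENR-minus, and -6.21 to -4.37 for Guca2a and -5.97 to -1.02 for Prkg2 in WENR-plus. For guide by medium in proximal organoids Prkg2 ranged from -4.21 to 1.32. For region by medium Guca2b ranged from -0.0281 to 1.15 and Gucy2c from -0.42 to 0.58.

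Counts of called pathway genes fell with at least 10 counts in every library, from 9 to 3 in both proximal guide comparisons and from 2 to 0 in distal WENR-minus, where fewer genes were tested. Of all genes, DESeq2 called 175 by guide in distal WENR-plus against 40 with edgeR, 538 against 267 by region in Scramble-sgRNA in WENR-plus, 1234 against 762 for guide by region in WENR-plus, 1166 against 550 and 120 against 0 for guide by medium in proximal and distal organoids, and 159 against 11 for region by medium. Without the filter edgeR called 586, 1039, 1863, 1596, 354 and 454 in these 6, and 1482 against 978 by medium in proximal Cdx2-sgRNA, 1531 against 802 by guide in distal WENR-minus and 1619 against 929 by region in Scramble-sgRNA in WENR-minus. With at least 10 counts in every library it called 1790 against 3239, 1258 against 2427 and 17 against 40 by guide in proximal WENR-minus, proximal WENR-plus and distal WENR-plus. The same filter gave by region 585 against 929 and 107 against 267 in Scramble-sgRNA and 3366 against 5291 and 1317 against 2595 in Cdx2-sgRNA (WENR-minus first), 426 against 762 for guide by region in WENR-plus and 4 against 0 for guide by medium in distal organoids. Length-scaled counts gave 362 against 550 for guide by medium in proximal organoids. Depth limits the low levels most: in proximal Cdx2-sgRNA the members rest on 2 to 172 reads per library, and distal Guca2b in Cdx2-sgRNA in WENR-minus on 11 to 20.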
